A study of Rattus norvegicus with 2 samples.

Results

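The NDRG family, the genes N-myc downstream regulated 1 to 4, was measured in lens epithelial cells (LECs) of Shumiya cataract rats (SCRs), and its members were taken as the probe sets that the platform annotation assigns to *Ndrg1*, *Ndrg2*, *Ndrg3* or *Ndrg4* alone. This gave 5 of 29870 probe sets, 1 each for *Ndrg1*, *Ndrg2* and *Ndrg3* and 2 for *Ndrg4*, and thus 4 of 18166 genes with a value. The family was chosen because *Ndrg1* was already known to be low in the Cat+ sample and its relatives were not, so the values of its members in this contrast are a description. The Cat+ sample came from 5-week-old cataractous SCRs of genotype Lss s/Lss l, and the Cat- sample came from 5-week-old SCRs of genotype Lss s/Lss s, whose lenses stay clear. Both groups carry the Lss s allele, and the strain also carries mutant *Fdft1* alleles, whose state in these rats is not given in the sources used here. Each sample was RNA from the LECs of 2 eyes, taken off with the lens capsule and hybridized to 1 GeneChip Rat Gene 2.0 ST array. With 1 array per condition, the spread between animals is unknown and no test was run.

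NDRG proteins share the fold of the alpha/beta hydrolases but lack the catalytic residues of those enzymes. *Ndrg1* is repressed by N-Myc and switched on when cells differentiate, when oxygen is low and when metals or DNA damage stress the cell, and its protein acts in membrane trafficking, is phosphorylated by the kinases SGK1 and GSK3, and is mutated in a human demyelinating neuropathy. *Ndrg2* is best known from astrocytes and as a growth-restraining gene, *Ndrg3* from signalling under low oxygen in human cells, and *Ndrg4* from brain and heart. In the lens, a single layer of epithelial cells covers the front, and cells that leave it at the equator elongate, fill with crystallins and lose their organelles to become fibers.

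In Cat+ LECs, *Ndrg1* was the only member of the family with a ratio under 0.5 or over 2, the size rule of the study, and the other members lay close to 1. The *Ndrg1* probe set (17837791) had a log2 signal of 9.69 in Cat+, against 11.32 in Cat-, a log2 difference of -1.63 and a ratio of 0.324. The gene was bright on both arrays: its signal exceeded that of 98.0% of probe sets in Cat+ and 99.7% in Cat-, so that the lower Cat+ signal was still 4.01 log2 units above the median of its array, against 5.64 in Cat-. Over all features, 104 of 29870 probe sets (0.348%) and 56 of 18166 genes (0.308%) had a ratio under 0.5, and 7 probe sets (0.0234%) and 1 gene (0.0055%) a ratio over 2; since the family was picked on this contrast, its 1 gene of 4 is not read against these shares. *Ndrg1* was the 25th lowest probe set and the 22nd lowest gene by its difference. These are bulk samples, in which fewer cells of a type and less RNA per cell cannot be told apart.

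**Figure D1:**
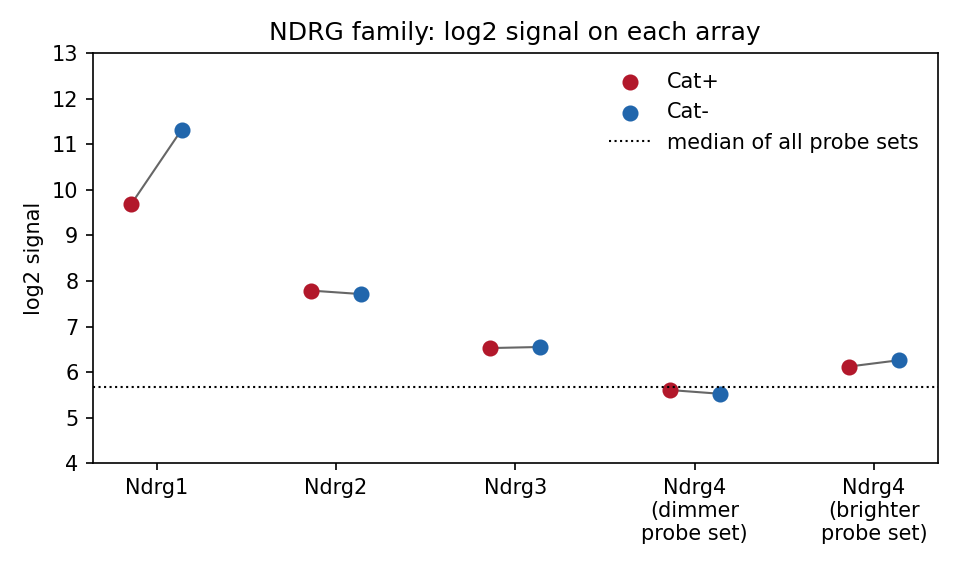
Log2 signal (vertical axis) of the 5 NDRG probe sets, with Cat+ in red on the left and Cat- in blue on the right of each pair, 1 array each. *Ndrg1* stands 1.63 log2 units lower in Cat+, while the points of each other pair are at most 0.14 apart; the dotted line is the median of all probe sets, averaged over the arrays.

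*Ndrg2* had a log2 signal of 7.79 in Cat+, against 7.71 in Cat- (probe set 17702067), a ratio of 1.05. *Ndrg3* had a log2 signal of 6.53 in Cat+, against 6.55 in Cat- (probe set 17778777), a ratio of 0.984. Neither gene differed between the arrays by more than 0.17 log2 units, the SD of the difference between probe sets of the same gene, which was taken over the 291 genes with several probe sets and covers probe sets, not animals. The RefSeq gene table also lists *Ndrg3-ps1* beside *Ndrg3*, and how far the *Ndrg3* probes read that copy was not measured.

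*Ndrg4* was read by a pair of probe sets that disagreed in sign. The brighter (17731406) had a log2 signal of 6.12 in Cat+, against 6.26 in Cat-, a ratio of 0.908. The dimmer (17727796) had a log2 signal of 5.61 in Cat+, against 5.53 in Cat-, a ratio of 1.06, and lay under the median of both arrays, which was 5.69 in Cat+ and 5.67 in Cat-. Their differences were 0.22 log2 units apart, about as far as probe sets of the same gene usually lie, so no direction is given for *Ndrg4*. The table has no detection calls, and a low signal there may be background.

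Set against its relatives, the *Ndrg1* difference lay 1.60 log2 units below the mean of *Ndrg2*, *Ndrg3* and *Ndrg4*, which was -0.03 with the brighter probe set of *Ndrg4*. By gene, it lay 1.70 below *Ndrg2*, 1.60 below *Ndrg3* and 1.49 below *Ndrg4*. The absolute difference of *Ndrg1* was larger than that of 99.9% of all probe sets, against 37.0% for *Ndrg2*, 12.2% for *Ndrg3* and 59.1% and 39.3% for the brighter and dimmer probe sets of *Ndrg4*. These are comparisons of differences: probes of different genes bind with different strength, so the higher signal of *Ndrg1* than of its relatives does not rank their transcripts.

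**Figure D2:**
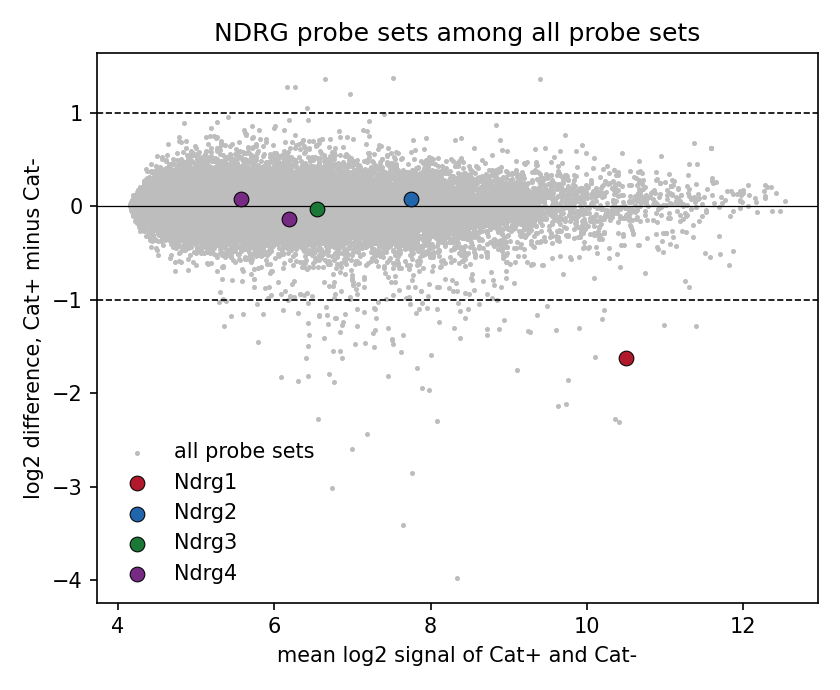
Log2 difference Cat+ minus Cat- (vertical axis) against the mean log2 signal of both arrays (horizontal axis) for all 29870 probe sets in grey, with the NDRG probe sets in colour and dashed lines at a ratio of 0.5 and 2. *Ndrg1* lies at -1.63 at the bright end, and the other 4 NDRG points lie between -0.14 and 0.08 within the bulk.

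Few probe sets as bright as *Ndrg1* were as far apart between the arrays. Within 0.5 log2 units of its mean signal of 10.50 there were 267 other probe sets, of which 6 (2.25%) had a ratio under 0.5 and none a ratio over 2, and the middle 90% of which ran from -0.45 to 0.36 on the log2 scale. Only *Mip*, the water channel of lens fibers, and *Crygc*, a gamma crystallin, were lower than *Ndrg1* there. The other 4 were *Lim2*, a membrane protein of fibers, *Ccng1*, cyclin G1, which p53 induces, a probe set shared by *Lenep* and *Flad1*, and a probe set unnamed in the annotation used here. The 45 genes with a Cat- signal at least that of *Ndrg1*, itself included, were picked on Cat- alone, which favours genes lower in Cat+. Of these, 3 (6.67%) had a ratio under 0.5, against 0.308% of all genes, and they were again *Mip*, *Crygc* and *Ndrg1*. Since *Ndrg1* and its Cat- signal defined the set, this count is a description only. As a group the 45 were balanced, with 25 lower and 20 higher in Cat+ and a median difference of -0.01.

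The paralogs lay inside the spread of their own signal ranges. Around *Ndrg2*, the middle 90% of 3200 other probe sets ran from -0.43 to 0.33, and the gene was at 0.08. Around *Ndrg3*, that of 5667 others ran from -0.37 to 0.34, and the gene was at -0.02. Around the brighter *Ndrg4* probe set, that of 6513 others ran from -0.34 to 0.34, and the probe set was at -0.14, whereas the dimmer, at 0.08, stood within -0.31 to 0.34 among 8930 others.

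By likeness of pattern, taken as the distance between probe sets over the 2 log2 signals, the 5 single-gene probe sets nearest to *Ndrg1* were those of *Mip*, *Crygc*, *Ccng1*, *Lim2* and *Crygn*. *Mip* was at a distance of 0.50, with a log2 signal of 9.26 in Cat+, against 11.57 in Cat-. *Crygc* was also at 0.50, with 9.22 in Cat+ and 11.50 in Cat-. *Ccng1* was at 0.55, with 9.66 in Cat+ and 10.77 in Cat-, a ratio of 0.464. Among the 5, *Lim2* had the ratio closest to that of *Ndrg1*, at 0.328 with a log2 signal of 9.30 in Cat+, against 10.91 in Cat-, at a distance of 0.57. *Crygn*, a crystallin that stands between the beta and gamma groups, was at 0.70 with 10.10 in Cat+ and 10.75 in Cat-, a ratio of 0.637. With 2 samples such likeness rests on 2 values per gene and describes these arrays only. The family was chosen on these same values, so near probe sets tend to be bright and lower in Cat+ by construction. The distance also weighs brightness, which depends on the probes, and not the ratio alone.

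Many genes of the lens fiber cell were also lower in Cat+, but not all by much. Of 28 listed, 22 were named by the annotation used here. All 22 had a lower value in Cat+, against 51.2% of all genes, and 11 had a ratio under 0.5, against 0.308%. The median log2 difference was -1.27, against a median of -0.00488 over all genes, but the list was graded. *Tmod1*, *Crygs*, *Grifin*, *Gja3* and *Crygd* had ratios of 0.525 to 0.688. *Cryba1*, *Cryba2*, *Prox1*, *Maf*, *Cdkn1b* and *Cdkn1c* had ratios of 0.907 to 0.982. Their differences were smaller than 0.17 log2 units, the SD between probe sets of the same gene. The list is not independent evidence, since the study names all 11 genes with a ratio under 0.5, and picked them on the same arrays. The ratio of *Ndrg1* stood within the list, with 9 fiber genes lower and 13 higher: *Crygb*, a gamma crystallin, was at 0.276 and *Gje1*, of the connexin family, at 0.326. The lowest was *Lgsn*, which encodes lengsin, at 0.0636 and the closest to 1 was *Cdkn1b*, a cell cycle inhibitor, at 0.982. The summed linear signal of the fiber genes was 22753 in Cat+ and 39631 in Cat-, and the part of fiber cell RNA in the lower *Ndrg1* signal was not tested.

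Genes of the lens epithelium were not lower as a group. Of 12 measured of 13 listed, 7 were higher and 5 lower in Cat+, none passed the size rule, and the median log2 difference was 0.08. Over all genes, 48.8% were higher and 51.2% lower in Cat+, 0.308% had a ratio under 0.5 and 0.0055% a ratio over 2. None past the size rule is thus the usual outcome for a short list, here and in the lists below. *Foxe3*, the transcription factor that marks the epithelium, had a log2 signal of 9.72 in Cat+, against 9.53 in Cat-, a ratio of 1.14. *Pax6*, the eye master regulator, had 10.03 in Cat+ and 9.87 in Cat-, a ratio of 1.12. *Itga6*, an integrin that binds laminin and the gene of the list furthest from 1, was lower, with a log2 signal of 7.26 in Cat+, against 7.52 in Cat-, a ratio of 0.838, and *Sox2*, *Fgfr2*, *Cryab* and *Krt8* were lower at 0.948 to 0.968. Of the 12 genes, 11 reached the array median on at least 1 array and *Krt18* did not, and the list ran from a log2 signal of 5.64 for *Krt18* to 12.44 for *Cryab* in Cat+ and from 5.50 to 12.49 for the same genes in Cat-.

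**Figure D3:**
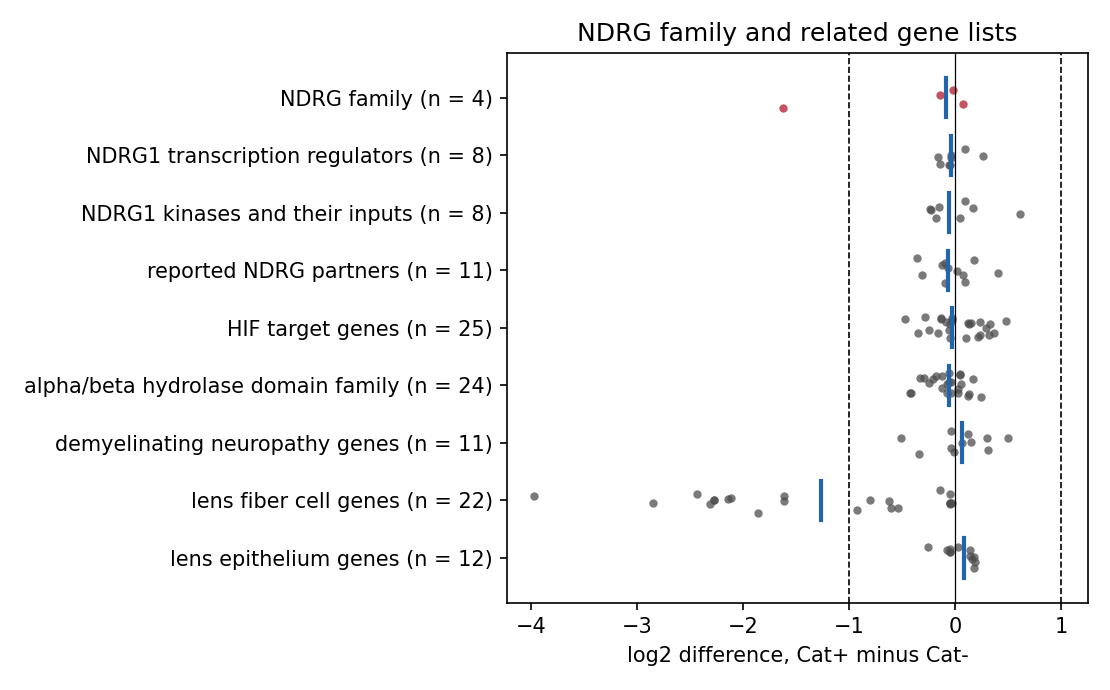
Log2 difference Cat+ minus Cat- (horizontal axis) of every measured gene of the NDRG family (red) and of 8 related lists (grey), with blue bars at list medians and dashed lines at a ratio of 0.5 and 2; points are spread vertically for sight only. Genes beyond the dashed lines are *Ndrg1* and 11 lens fiber genes.

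The factors that control *Ndrg1* transcription differed little between the arrays. Of 8 measured of 10 listed, 2 were higher and 6 lower in Cat+, none passed the size rule, and the median log2 difference was -0.04. *Mycn*, the repressor after which the family is named, had a log2 signal of 6.42 in Cat+, against 6.47 in Cat-, a ratio of 0.969. *Myc*, which also represses *Ndrg1*, had 5.20 in Cat+ and 5.36 in Cat-, both under the array median, and a ratio of 0.895. *Hif1a*, the oxygen-regulated factor that induces *Ndrg1*, was the furthest from 1, with a log2 signal of 11.79 in Cat+, against 11.53 in Cat-, a ratio of 1.20. The remaining genes were its relative *Epas1* at 0.908, their partner *Arnt* at 1.06, the hydroxylase *Egln1* at 0.976 and the ubiquitin ligase subunit *Vhl* at 0.960, which mark and remove these factors, and *Egr1*, an early response factor, at 0.974. The array reads messenger RNA, and HIF1A and MYC protein levels were not measured.

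Other targets of the hypoxia-inducible factors lay close to the shares of all genes. Of 25 measured of 27 listed, 12 were higher and 13 lower in Cat+, against 48.8% and 51.2% of all genes. None passed the size rule, against 0.308% of all genes with a ratio under 0.5, and the median log2 difference was -0.03. *Higd1a*, a mitochondrial protein induced by low oxygen, had a log2 signal of 6.91 in Cat+, against 6.43 in Cat-, a ratio of 1.40. *Ankrd37*, an ankyrin repeat gene, had 6.42 in Cat+ and 6.90 in Cat-, a ratio of 0.719. These were the ends of the list, and *Lox*, which crosslinks collagen, followed at 1.29 and *Stc2*, a secreted glycoprotein, at 0.782. *Slc2a1*, the glucose transporter, and *Vegfa*, the vascular growth factor, were at 1.10 and 0.968, *Pgk1* and *Ldha*, enzymes of glycolysis, at 0.819 and 1.18, and *Egln3*, a hydroxylase of the factors themselves, at 1.25.

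Among the kinases that act on NDRG1 protein, *Sgk1* was the exception. Its signal on the log2 scale was 9.65 in Cat+, against 9.03 in Cat-, a ratio of 1.53 and a log2 difference of 0.61, past the 99th percentile of all probe sets at 0.49 but under the size rule. *Sgk2*, a second kinase of that group, was at 0.856 with a dim log2 signal of 5.62 in Cat+, against 5.84 in Cat-. *Gsk3a* and *Gsk3b*, which phosphorylate the protein after SGK1, were at 0.901 and 1.07. Of the genes upstream of SGK1, *Mtor* was at 0.847, *Rictor* and *Mapkap1*, subunits of its second complex, at 1.13 and 1.03, and *Pdpk1* at 0.882. Over the 8 measured of 9 listed, 4 were higher and 4 lower, with a median log2 difference of -0.05, and phosphorylation was not measured.

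Genes whose proteins have been reported to bind NDRG proteins were near balance. Of 11 measured of 13 listed, 5 were higher and 6 lower in Cat+, none passed the size rule, and the median log2 difference was -0.07. *Atp1b1*, the beta subunit of the sodium pump and a partner of NDRG2, had a log2 signal of 10.28 in Cat+, against 9.87 in Cat-, a ratio of 1.33. *Rabac1*, a Rab acceptor of the Golgi, had 8.64 in Cat+ and 9.00 in Cat-, a ratio of 0.778. *Cdh1*, the epithelial cadherin whose recycling involves NDRG1, was at 1.13, and *Apoa2*, an apolipoprotein, at 0.804.

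No gene of the wider fold family passed the size rule. Over all genes 0.308% had a ratio under 0.5, so a list of this size would usually hold none. Of 24 measured of 25 listed alpha/beta hydrolase domain genes, 9 were higher and 15 lower in Cat+, with a median log2 difference of -0.06. The lowest were *Abhd12*, a lysophosphatidylserine lipase, at 0.747, *Abhd4*, of N-acyl phospholipid metabolism, at 0.750 and *Abhd17a*, which removes palmitate from proteins, at 0.796; *Abhd16b* was at 0.813. The highest was *Abhd17b*, of the same depalmitoylase group, with a log2 signal of 7.11 in Cat+, against 6.87 in Cat-, a ratio of 1.19.

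Genes that share the neuropathy link of *Ndrg1* were mixed. Of 11 measured of 15 listed, 6 were higher and 5 lower in Cat+, none passed the size rule, and the median log2 difference was 0.07. *Prx*, periaxin, a scaffold of myelin that lens fibers also make, had a log2 signal of 6.36 in Cat+, against 6.87 in Cat-, a ratio of 0.701. *Litaf*, an endosomal membrane protein, had 8.24 in Cat+ and 7.74 in Cat-, a ratio of 1.41. These were the ends of the list; *Gjb1*, a connexin, was at 0.787, *Fgd4*, a Cdc42 exchange factor, at 1.24, and *Pmp22*, the peripheral myelin protein, was bright at 11.75 in Cat+ and 11.44 in Cat-, a ratio of 1.24.

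The genes flanking each member were close to 1. *Ccn4* and *Sla*, on one side of *Ndrg1* on chromosome 7 in the RefSeq gene table, were at 0.993 and 0.909, and *St3gal1* and *Zfat*, on the other, at 0.844 and 1.03, with 2 genes that no probe set names here between these last. *St3gal1*, a sialyltransferase, was the furthest from 1 of the 4, with a log2 signal of 8.86 in Cat+, against 9.11 in Cat-. Over all 16 flanking genes of the 4 members, on chromosomes 7, 15, 3 and 19, ratios ran from 0.789 for *Gins3* beside *Ndrg4* to 1.18 for *Mtcl2* beside *Ndrg3*, and none passed the size rule.

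**Figure D4:**
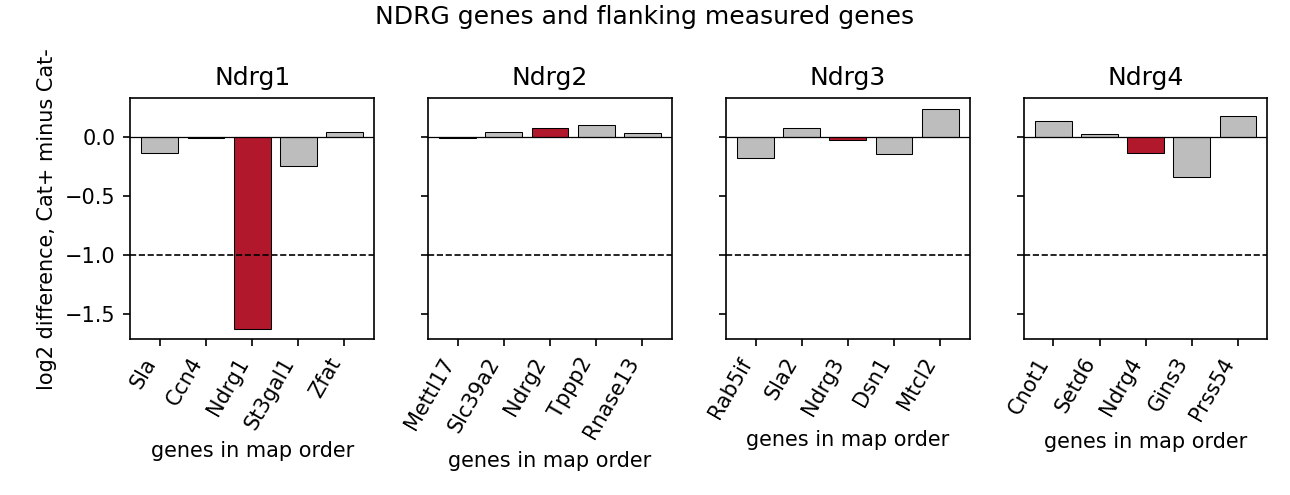
Log2 difference Cat+ minus Cat- (vertical axis) of each NDRG gene (red) and the nearest 2 measured protein-coding genes on each side (grey) in map order, with a dashed line at a ratio of 0.5. The bar of *Ndrg1* is the only one past the line, at -1.63, while its neighbours run from -0.24 to 0.04.

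Several markers of other cells differed between the samples in the opposite direction to *Ndrg1*. Over all genes, 48.8% were higher in Cat+. All 12 macrophage and leukocyte markers were higher in Cat+, with a summed linear signal of 2073 in Cat+ and 1495 in Cat-, as were 7 of 9 photoreceptor markers, with 2517 in Cat+ and 1905 in Cat-, and 6 of 7 pigment cell markers, with 1924 in Cat+ and 1758 in Cat-. The exceptions were *Opn1sw* at a ratio of 0.751 and *Crx* at 0.817 for photoreceptors, and *Mitf* at 0.714 for pigment cells. The sums weigh the brightest probe sets most. Among neuron markers, 3 of 10 were higher, with 1110 in Cat+ and 1084 in Cat-. Astrocytes and Muller glia had 4 of 7 markers higher, with 837 in Cat+ and 804 in Cat-. Schwann cells and myelin had 2 of 6 higher, with 384 in Cat+ and 386 in Cat-. Blood and endothelium had 2 of 4 higher and cornea and keratinocytes 2 of 5. None of these markers passed the size rule, the array gives no true 0, and the part of other cells in the NDRG values was not tested. Of 8 housekeeping genes measured, 6 were higher and 2 lower, from *Rplp0* at 0.709 to *B2m* at 1.40.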

How the data were processed

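RNA was amplified and labelled with the WT Pico kit. Each array was normalized by the authors to a specific control or to its average intensity, and they deposited log2 values for 29870 probe sets in 2 samples. The sources used here do not state the background correction, the summarization of probes or the genome build. The log2 scale of the values was read from the range they span, 4.13 to 12.56 in Cat+ and 4.13 to 12.50 in Cat-, and the columns are not centred per gene. The difference Cat+ minus Cat- was computed without further normalization or filter, and 2 to its power is the ratio. With 1 array per condition no test was possible, and the number of arrays limits the precision. Probe sets were named from the platform annotation: 18511 name 1 gene, 575 several and 10784 none, and 18394 of the first have an Entrez ID listed in the GRCr8 gene table of RefSeq, which also gave the neighbours. A gene with several probe sets took the one with the higher mean signal.

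The members and the 18 gene lists were chosen with earlier results of these data known. Genes named are the members, up to 4 genes of each list with the largest absolute differences, those that mark the ends of a range, 2 measured genes on each side of a member, the 5 nearest probe sets, and, as members of a list given by role or of a window, a few chosen after their values were seen (among them *Slc2a1*, *Vegfa*, *Pgk1*, *Ldha*, *Egln3*, *Pmp22*, *Abhd17b* and *Pax6*). Alternatives were median centring, quantile normalization, a loess curve with a span of 0.3, a floor at the 20th percentile, a filter at the array median, the mean over probe sets, and 1.5-fold and 3-fold thresholds. Scripts ran under Python 3.11.15 with pandas 2.3.3 and NumPy 2.4.6; curves were fitted in statsmodels 0.14.6, and plots were drawn in matplotlib 3.10.9.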

Additional observations from a re-analysis of the deposited data

How the results depend on the processing

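The *Ndrg1* difference ran from -1.66 to -1.63 under 5 alternatives (median centring, quantile normalization, loess, the floor and the mean over probe sets), and its distance from the mean of its relatives from -1.64 to -1.60. *Ndrg2* ran from 0.06 to 0.10 and *Ndrg3* from -0.04 to -0.02. *Ndrg4* was at 0.0825 with its dimmer probe set in place of -0.14 with the brighter, and at -0.03 as their mean. With a 1.5-fold threshold, 303 probe sets were lower and 141 higher in Cat+, and with a 3-fold threshold 28 were lower, *Ndrg1* among them, and 0 higher. All 102 alternative medians of 17 gene lists moved by less than 0.17 log2 units, the SD between probe sets of the same gene, though the HIF target median, close to 0, was at 0.04 with the filter at the array median, as was that of the neuron markers at 0.10. No paired analysis was possible because each condition has 1 array. Leaving out a sample was not possible for the same reason. No alternative measures the spread between animals, and dim signals, such as those of *Ndrg4*, *Myc*, *Gjb1* and *Abhd16b*, carry no detection call.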
